A study of Mus musculus with 3 samples.

Results

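The Zfp genes of the mouse encode zinc finger proteins, most of which bind DNA. They were taken here as the symbols made of Zfp and digits only that reached 1 TPM in at least 1 of 3 oocyte libraries, with 1 transcript per symbol, the one with the highest mean TPM (TPM is transcript abundance scaled to a total of 1000000 per library). There were 132 such genes, out of 193 Zfp symbols and 6104 symbols in all in the table analysed, and out of 4323 symbols that reached 1 TPM. The 3 libraries were, by their titles, Aged_sec, Aged and Young, called aged-sec, aged and young below. All came from ICR mouse oocytes matured in culture for 16 to 18 h in M16 medium to metaphase II. The aged-sec oocytes were matured with hUC-MSC-sec, what mesenchymal stem cells of the human umbilical cord secrete, and the aged and young oocytes are read as matured without it, although the treatment label names the secretome on every sample. Ages in months were not among the labels used here. Each library pooled 20 oocytes of 4 mice, and each group had 1 library.

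Without replicates, the values carry no error and no test was possible, so the differences are between libraries and not shown to be between conditions. Read depth cannot be had from TPM. The lowest aged over young ratio in the table was 1.2, so no Zfp transcript with a lower ratio could be used. Other transcripts of a member may thus be missing, and the direction of its total mRNA is not known. Choosing by this ratio favours transcripts with a high aged or a low young value, which draws aged-sec over aged below 1 and aged-sec over young above 1. In these pooled samples, fewer oocytes contributing RNA and less RNA per oocyte cannot be told apart. Listed transcripts held 32.1% of all TPM in aged-sec, 32.5% in aged and 22.9% in young oocytes. The oocyte growth factor gene Bmp15 stood at 799 TPM in aged-sec, 817 TPM in aged and 585 TPM in young oocytes. The zona pellucida gene Zp2 stood at 20.5 TPM in aged-sec, 39.3 TPM in aged and 20.5 TPM in young oocytes, and the growth factor gene Gdf9 at 4.46 TPM in aged-sec, 6.81 TPM in aged and 4.36 TPM in young oocytes. These were the 3 of 14 oocyte markers that were listed, and their median log2 aged-sec over aged ratio (0.5 TPM added) was -0.56. Of 14 cumulus and granulosa cell markers only Fshr was listed, at 0.22 TPM in aged-sec, 0.55 TPM in aged and 0.03 TPM in young oocytes. The other markers of both lists were not analysed here.

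A classical C2H2 zinc finger is a short loop of protein held by a zinc ion between a pair of cysteines and a pair of histidines, and tandem fingers read a DNA sequence. Many of these proteins also carry a KRAB domain, which recruits the corepressor TRIM28 and through it the histone methyltransferase SETDB1. KRAB zinc finger genes lie in clusters of young duplicates, and many of their products bind and silence retroelements or protect imprinted regions in the egg and early embryo. The membership rule used names and levels, and coding sequences of 131 of the 132 genes were available in GENCODE M21 (GRCm38). Because the Zfp name itself marks zinc finger genes, a high share with finger patterns follows from the choice of names. At least 1 finger pattern was found in 125 of the encoded proteins (95.4%), against 3.65% of 21864 mouse proteins. The pattern was a cysteine pair spaced by 2 to 4 residues, 12 residues, and a histidine pair spaced by 3 to 5. The median was 11 fingers and the highest number 36, in Zfp142. A pattern for the start of the KRAB domain was found in 91 of them (69.5%), against 1.57% of all proteins and 43.3% of the 638 proteins with at least 3 fingers. A missing match does not show that the domain is absent. Zfp708, read below among KRAB zinc finger genes, had no match. No finger pattern was found for Zfp750, Zfp703, Zfp972, Zfp781, Zfp935 and Zfp993. The last 4 of these had annotated proteins of only 129 to 243 residues.

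**Figure D1:**
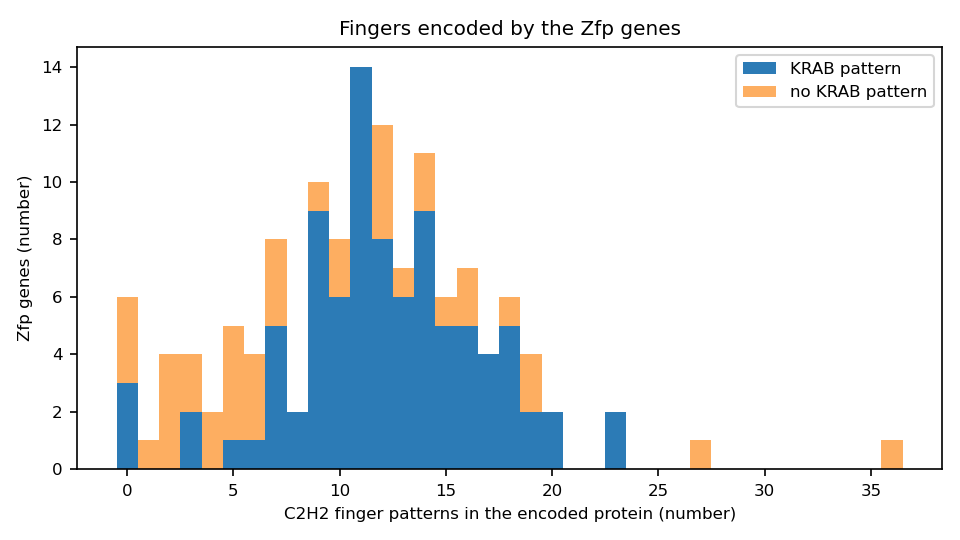
Number of C2H2 finger patterns (horizontal axis) in the proteins of 131 Zfp genes, as counts of genes (vertical axis), stacked by whether the protein holds the KRAB pattern. The 91 genes with the KRAB pattern make up most of the genes with 10 or more fingers, and the median over all is 11.

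The coding sequence of the first finger is shown for 6 genes on which the values below turn, from the longest GENCODE M21 coding transcript and in the sense of the mRNA. Capitals mark the codons of the 2 cysteines and 2 histidines that hold the zinc. Zfp706 and Zfp655 are the most abundant members, Zfp979 and Zfp978 lie in the same gene cluster and have large aged over young ratios, and Zfp960 and Zfp97 are adjacent near copies.
Zfp706: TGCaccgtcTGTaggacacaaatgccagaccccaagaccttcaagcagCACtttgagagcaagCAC
Zfp655: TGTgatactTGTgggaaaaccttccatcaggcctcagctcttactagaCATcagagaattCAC
Zfp979: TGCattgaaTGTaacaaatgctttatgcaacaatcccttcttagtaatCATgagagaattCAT
Zfp978: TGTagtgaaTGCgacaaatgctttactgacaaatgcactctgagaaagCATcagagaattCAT
Zfp960: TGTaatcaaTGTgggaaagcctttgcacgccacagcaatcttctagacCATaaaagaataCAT
Zfp97: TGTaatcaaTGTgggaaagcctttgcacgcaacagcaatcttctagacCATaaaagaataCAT
The fingers of Zfp960 and Zfp97 differed at 1 of 63 bases, and their whole coding sequences were 98.2% identical. Those of Zfp979 and Zfp978 differed at 16 of 63 bases. The finger of Zfp706 is the only one of its protein, which has 76 residues, whereas Zfp960 and Zfp97 encode 13 fingers each.

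The 132 genes were mostly of low abundance. Together they held 0.227% of all TPM in aged-sec, 0.255% in aged and 0.153% in young oocytes. The median gene stood at 5.04 TPM in aged-sec, 5.85 TPM in aged and 3.31 TPM in young oocytes. There were 39 genes at 10 TPM or more in aged-sec, 43 in aged and 30 in young oocytes. Zfp706, a gene that in mouse embryonic stem cells takes part in the exit from self-renewal, led at 620 TPM in aged-sec, 709 TPM in aged and 497 TPM in young oocytes. Zfp655, whose human counterpart binds the signalling protein VAV1, followed at 151 TPM in aged-sec, 189 TPM in aged and 130 TPM in young oocytes. These 2 genes alone held 33.9% of the TPM of the group in aged-sec, 35.2% in aged and 41.0% in young oocytes.

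The other genes among the 10 most abundant had lower levels. Zfp58 stood at 76.9 TPM in aged-sec, 72.4 TPM in aged and 45.96 TPM in young oocytes. Zfp932, which together with its near copy Gm15446 represses endogenous retroviruses in mouse embryonic stem cells, stood at 65.9 TPM in aged-sec, 72.96 TPM in aged and 29.1 TPM in young oocytes. Zfp873 stood at 72.7 TPM in aged-sec, 65.2 TPM in aged and 27.3 TPM in young oocytes. In Zfp58 and Zfp873 the aged-sec library was the highest of the 3, and in Zfp932 the aged library was. Zfp982 stood at 60.1 TPM in aged-sec, 60.6 TPM in aged and 41.3 TPM in young oocytes. Zfp60 stood at 49.2 TPM in aged-sec, 57.9 TPM in aged and 45.8 TPM in young oocytes, and Zfp534 at 53.5 TPM in aged-sec, 44.4 TPM in aged and 27.6 TPM in young oocytes. Zfp960 stood at 40.8 TPM in aged-sec, 58.3 TPM in aged and 19.2 TPM in young oocytes, and Zfp131, a BTB-domain transcription factor, at 38.7 TPM in aged-sec, 41.2 TPM in aged and 32.01 TPM in young oocytes. For all 10 of these genes young oocytes were the lowest library. That young lay below aged follows from how the listed transcripts were chosen. Aged-sec was above young in 3444 of all 4323 symbols.

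**Figure D2:**
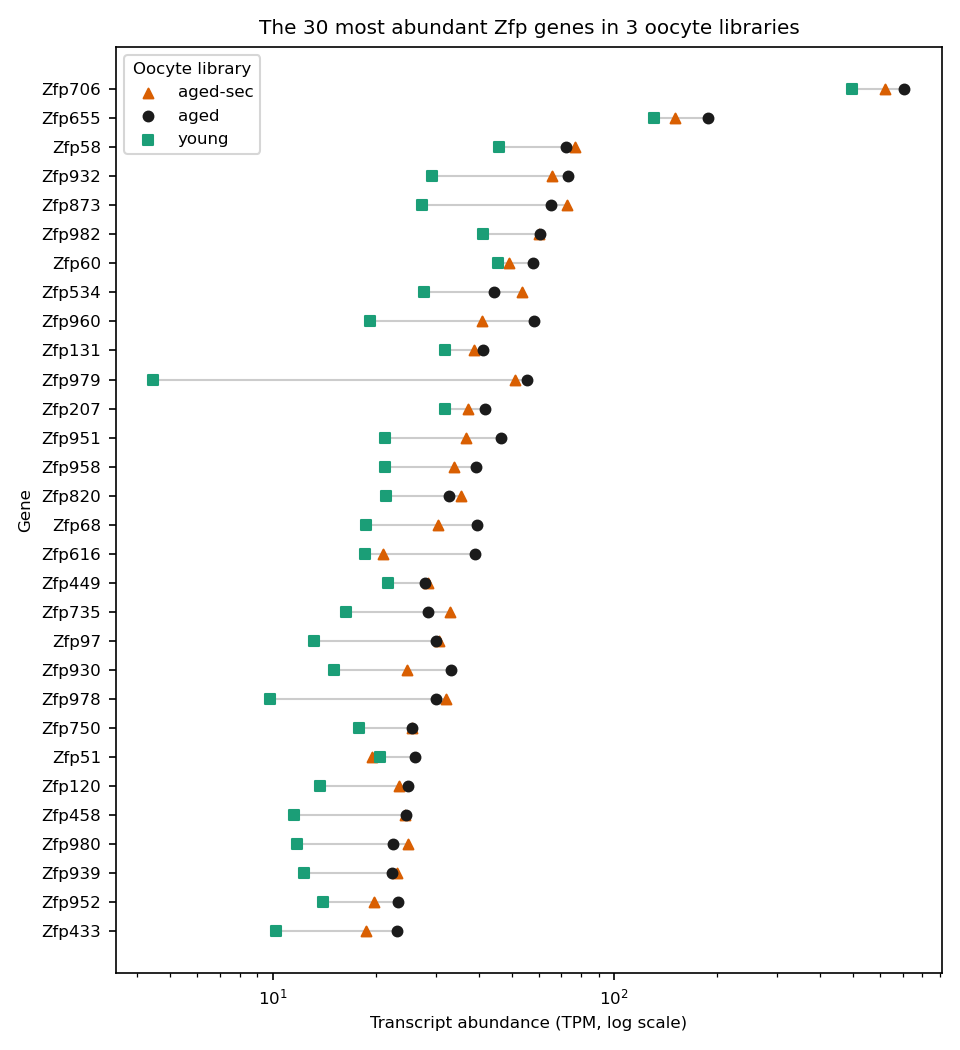
TPM on a log axis (horizontal) of the 30 most abundant Zfp genes (vertical) in the aged-sec, aged and young libraries, 1 library per group. Zfp706 leads with 497 to 709 TPM, and Zfp979 has the widest gap, with 51.3 TPM in aged-sec and 55.6 TPM in aged against 4.46 TPM in young oocytes.

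At the lower limit, the members just inside 1 TPM were Zfp346, Zfp87, Zfp142 and Zfp28, whose highest library held 1.00 to 1.07 TPM. Just outside were Zfp948, Zfp202, Zfp46 and Zfp40, at 0.99 to 0.82 TPM. The table held 193 of 367 annotated protein-coding Zfp genes (52.6%), against 5988 of 21900 protein-coding genes (27.3%). The other Zfp genes were not analysed here.

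Aged against young oocytes shows how much higher the listed Zfp mRNAs were in the aged library. The table and hence the membership were chosen on this contrast, so its values are a description. Ratios are given as log2 with 0.5 TPM added to each value. A gene was past the size rule when this was at least 1 in size (2-fold) and the higher of both libraries reached 10 TPM. The rule was met by 17 of the 43 Zfp genes with enough TPM, all higher in aged, against 15.9% of all 1759 symbols with enough TPM. The median over the 132 genes was 0.68, with a lowest value of 0.20 and a highest of 3.50, against 0.56 over all 4323 symbols. With the libraries scaled to equal medians of the listed symbols, the median was 0.10 over the Zfp genes and -0.10 over all symbols. All listed transcripts were chosen as higher in aged, so scaling on them removes real and technical differences alike. Then 2 of 47 Zfp genes met the rule, against 2.79% of all symbols.

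Zfp979 had the largest ratio. It stood at 51.3 TPM in aged-sec, 55.6 TPM in aged and 4.46 TPM in young oocytes, a log2 aged over young ratio of 3.50. Zfp979 and Zfp108 were the genes that met the rule also after either scaling. With the TPM of all listed transcripts of a gene summed, Zfp979 had a lower ratio of 2.63. Zfp936 (0.97) and Zfp68 (0.93) then no longer met the rule. Zfp108 stood at 8.47 TPM in aged-sec, 10.6 TPM in aged and 2.35 TPM in young oocytes (1.96), and Zfp960 at the values above (1.58). Zfp978 stood at 32.1 TPM in aged-sec, 30.02 TPM in aged and 9.80 TPM in young oocytes (1.57). Zfp605 stood at 9.80 TPM in aged-sec, 10.3 TPM in aged and 3.36 TPM in young oocytes (1.49) and Zfp936 at 11.4 TPM in aged-sec, 13.7 TPM in aged and 5.48 TPM in young oocytes (1.25). Zfp932 had a log2 ratio of 1.31 and Zfp873 one of 1.24. In Zfp978 and Zfp873 aged-sec was above aged, and in the other 6 it lay between aged and young.

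Of the 17 genes, 15 encoded the KRAB pattern. With the pattern, 15 of 30 genes with enough TPM met the rule, and without it 2 of 12 did, a share near the 15.9% of all symbols. Genes without a match may still encode the domain, so this split is by pattern and not by domain. The median log2 ratio was 0.74 over the 91 genes with the pattern and 0.50 over the 40 without it. With libraries scaled to equal medians the median ratios were 0.15 with the pattern and -0.17 without it, on opposite sides of 0. The rule was then met by 1 of 32 genes with the pattern and 1 of 14 without it, against 2.79% of all symbols.

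Near copies are hard to quantify apart, and the share of each transcript that other genes also hold was therefore counted. Of 131 genes, 95 shared at most 10% of their 50-base stretches with a transcript of another annotated gene (a paralog, a pseudogene or an overlapping gene), 36 shared more than 10% and 18 more than 50%. Of the 17 genes past the rule 9 shared more than 10%, and without the sharing genes 8 of 29 met it, against 15.9% of all symbols. Zfp960 shared 84.5% and Zfp97 83.1%, mostly with each other. Zfp97 stood at 30.6 TPM in aged-sec, 30.04 TPM in aged and 13.2 TPM in young oocytes, and the split between Zfp97 and Zfp960 is uncertain. Zfp932 shared 55.5%, most of it with Gm15446, and Zfp978 75.9%. Zfp979 shared 24.6%, Zfp108 11.9%, Zfp873 0.606% and Zfp605 0.225%. What part sharing has in the ratios was not tested.

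**Figure D3:**
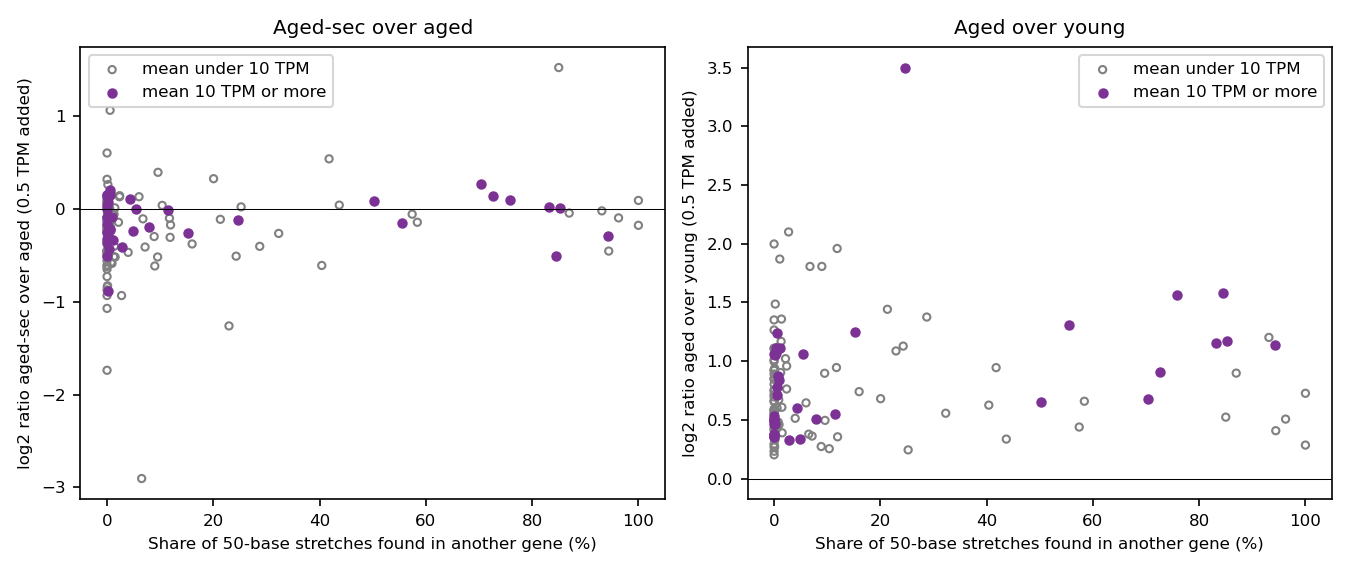
Share of the 50-base stretches of each transcript that another annotated gene also holds (horizontal axis, percent) against the log2 ratio (vertical axis, 0.5 TPM added) of aged-sec over aged on the left and of aged over young on the right. Each point is 1 of 131 Zfp genes, filled where its mean is at least 10 TPM, and 36 of them lie beyond 10% shared.

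Aged-sec against aged oocytes asks what differed when aged oocytes matured with the secretome. This comparison shares the aged library with the first comparison. None of the 43 Zfp genes with enough TPM met the size rule in either direction, where 0.168% of all 1789 symbols with enough TPM were higher and 2.18% were lower. The nearest was Zfp616, at 20.9 TPM in aged-sec, 38.97 TPM in aged and 18.5 TPM in young oocytes, a log2 aged-sec over aged ratio of -0.88. Of the 132 genes 92 were lower in aged-sec, 39 were higher and 1, Zfp750, was equal. That is 69.7% lower, against 73.7% of all symbols, a share near the background. The median log2 ratio was -0.17, against -0.23 over all symbols, and it was 0.072 with the libraries scaled to equal medians and 0.014 with equal upper quartiles. Among genes with a mean of 10 to 50 TPM, 18 of 31 Zfp genes (58.1%) were lower in aged-sec, against 75.7% of 1038 other symbols at that level. The other levels had no such gap. Below 5 TPM it was 72.1% of 68 Zfp genes, against 74.1% of others, and from 5 to 10 TPM 76.9% of 26, against 73.1%. At 50 TPM and above it was 5 of 7 genes, against 69.8% of 484 others.

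**Figure D4:**
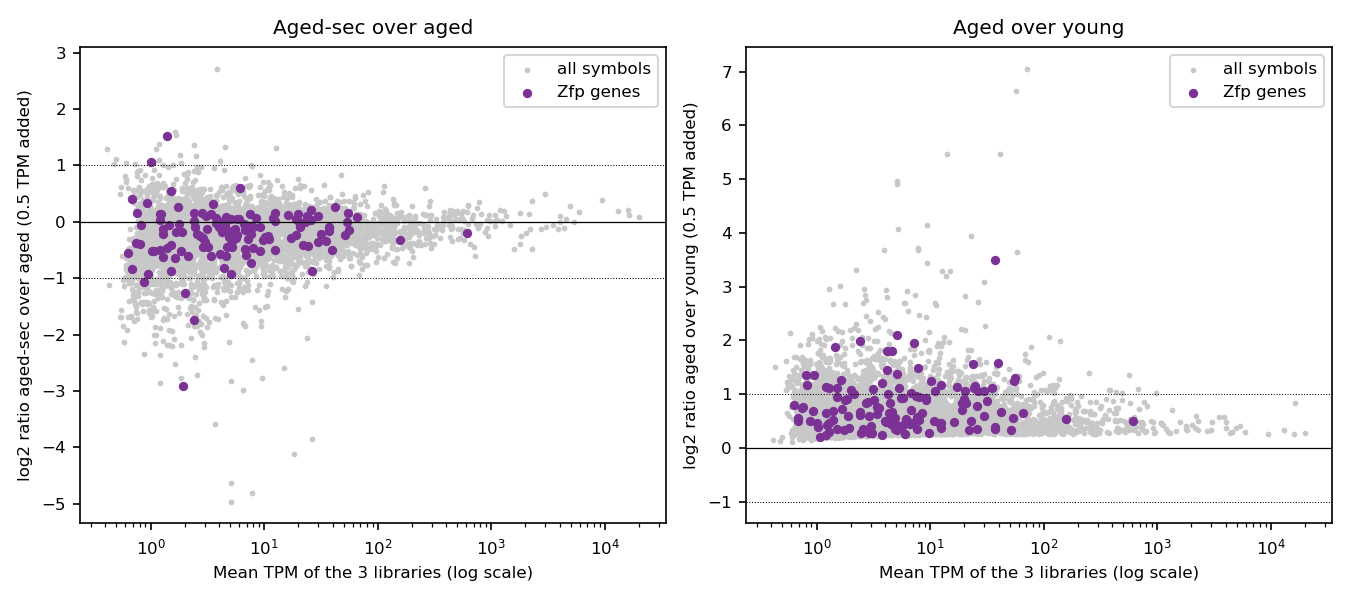
Log2 ratio (vertical axis, 0.5 TPM added) of aged-sec over aged on the left and of aged over young on the right, against the mean TPM of the 3 libraries (horizontal log axis). Each point is 1 gene, grey for all 4323 symbols and purple for the 132 Zfp genes, and dotted lines mark the 2-fold limit. No Zfp gene with 10 TPM or more crosses the limit on the left.

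Without the level filter, 6 of the 132 genes passed 2-fold between aged-sec and aged, against 7.36% of all symbols. All 6 had low levels, and they are named here after their values were seen. Zfp868 stood at 0.01 TPM in aged-sec, 3.32 TPM in aged and 2.44 TPM in young oocytes, where 0.01 is the smallest step of the table. Zfp791 stood at 1.20 TPM in aged-sec, 5.17 TPM in aged and 0.92 TPM in young oocytes, Zfp653 at 1.15 TPM in aged-sec, 3.45 TPM in aged and 1.36 TPM in young oocytes, and Zfp667 at 0.40 TPM in aged-sec, 1.39 TPM in aged and 0.84 TPM in young oocytes. The 2 higher ones were Zfp600, at 3.10 TPM in aged-sec, 0.75 TPM in aged and 0.37 TPM in young oocytes, and Zfp329, at 1.99 TPM in aged-sec, 0.69 TPM in aged and 0.36 TPM in young oocytes. All of these levels are low enough that ratios rest on few TPM.

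Between aged-sec and young oocytes, 9 of the 39 Zfp genes with enough TPM met the rule, all higher in aged-sec, against 14.2% of all 1609 symbols. Of these genes 8 also met the rule in aged over young. They were Zfp979 (3.38), Zfp978 (1.66), Zfp873 (1.40), Zfp97 (1.18), Zfp993 (1.18), Zfp932 (1.16), Zfp960 (1.07), Zfp458 (1.05) and Zfp980 (1.05), as log2 aged-sec over young. With listed transcripts summed Zfp979 had 2.55, and Zfp960 had 0.77 and no longer met the rule. Zfp993 stood at 15.4 TPM in aged-sec, 15.3 TPM in aged and 6.52 TPM in young oocytes and Zfp458 at 24.4 TPM in aged-sec, 24.5 TPM in aged and 11.5 TPM in young oocytes. Only 16 of the 132 genes (12.1%) were below young in aged-sec, against 20.1% of all symbols. The median log2 ratio was 0.54, against 0.38 over all symbols. Without the genes that shared more than 10% of their sequence 2 of 26 met the rule, a share below the 14.2% of all symbols. With equal medians 3 of 51 did, against 3.94% of all symbols, 52 of the 132 genes were below young, against 54.9%, and the median was 0.19, against -0.05.

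In the gene order of RefSeq GRCm38.p6, 80 of the 132 genes lay in 17 runs of neighbours, where at most 10 other protein-coding genes stood between one member and the next. The 7 runs of 5 or more held 55 genes. The run from Zfp980 to Zfp984 held 11 genes, in the order Zfp980, Zfp987, Zfp600, Zfp992, Zfp993, Zfp978, Zfp991, Zfp982, Zfp979, Zfp534 and Zfp984, all with the KRAB pattern. It summed to 258 TPM in aged-sec, 247 TPM in aged and 112 TPM in young oocytes. Of these genes 6 were higher and 5 lower in aged-sec than in aged, where 73.7% of all symbols were lower. Apart from Zfp600, the log2 aged-sec over aged ratios lay between -0.12 for Zfp979 and 0.27 for Zfp534, and the median over the 11 was 0.01. Scaling to equal medians moved it to 0.27. In aged over young this run had a median of 0.90, and 3 of the 6 genes with enough TPM were past the rule, against 15.9% of all symbols. With equal medians 1 of 6 was, against 2.79%. All 11 were above young in aged-sec, as were 3444 of all 4323 symbols. The median log2 aged-sec over young ratio of the run was 1.05, against 0.38 over all symbols. With equal medians it was 0.58, against -0.05. Of 6 genes 4 were past the rule there, against 14.2% of all symbols, and with equal medians 2 of 6, against 3.94%. These genes shared 11.5% (Zfp982) to 93.1% (Zfp987) of their 50-base stretches with other genes, so that values of single genes in this run are uncertain.

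The 8 promoters of this run in the RefSeq table (250 bases before the start to 50 after it) ranged from 40.3% to 94.4% identical in pairs. The most alike were those of Zfp979 and Zfp600, which are shown here. Zfp600 shared 85.0% of its 50-base stretches with other genes, so its level is uncertain. How the promoters relate to the levels of the 2 genes was not tested. Zfp979 lies at chr4:147642459-147642758 (minus strand) and Zfp600 at chr4:146156577-146156876 (plus strand) in GRCm38.p6, each in the sense of its own gene. Capitals mark the letters ATTGG, which read CCAAT on the other strand. For Zfp600 the first of 2 starts in the table is shown.
Zfp979: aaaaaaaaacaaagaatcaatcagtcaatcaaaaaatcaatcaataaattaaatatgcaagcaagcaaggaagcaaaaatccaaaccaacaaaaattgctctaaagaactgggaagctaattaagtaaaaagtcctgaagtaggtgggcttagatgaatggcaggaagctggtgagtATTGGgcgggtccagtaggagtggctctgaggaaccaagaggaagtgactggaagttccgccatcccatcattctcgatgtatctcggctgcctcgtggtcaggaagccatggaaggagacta
Zfp600: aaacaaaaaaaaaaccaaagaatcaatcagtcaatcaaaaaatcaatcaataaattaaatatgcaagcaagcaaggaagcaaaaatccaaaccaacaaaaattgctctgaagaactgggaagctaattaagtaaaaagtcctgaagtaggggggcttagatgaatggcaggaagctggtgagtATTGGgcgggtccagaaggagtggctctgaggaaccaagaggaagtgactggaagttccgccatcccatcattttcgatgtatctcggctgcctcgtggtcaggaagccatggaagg
Zfp979 stood at 51.3 TPM in aged-sec, 55.6 TPM in aged and 4.46 TPM in young oocytes, and Zfp600 at 3.10 TPM in aged-sec, 0.75 TPM in aged and 0.37 TPM in young oocytes. CCAAT on either strand was found in 62 of 112 Zfp promoters (55.4%), against 37.9% of 27025 promoters of the same length, and in 7 of the 8 promoters of this run. GGGCGG on either strand was found in 44.6% of Zfp promoters and 35.9% of all, and TATAAA on either strand in 4.46% and 14.2%. CCAAT and GGGCGG were counted separately and may overlap in a promoter, and a match does not show that a factor binds there.

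The other long runs differed among themselves. Their counts of genes lower in aged-sec than in aged stand against 73.7% of all symbols. The run from Zfp708 to Zfp273 (10 genes, among them Zfp58, Zfp458 and Zfp738) had a median of 0.01 in aged-sec over aged (log2), with 5 genes lower and 5 higher. In the run from Zfp160 to Zfp946 (11 genes) it was -0.14, with 7 lower. In the run from Zfp84 to Zfp260 (8 genes) it was -0.21, with 7 lower, and in that from Zfp870 to Zfp81 (5 genes) -0.13, with 4 lower. In the run from Zfp788 to Zfp936 (5 genes) it was -0.26, with 4 lower. The run from Zfp930 to Zfp866 (5 genes) had the lowest median, -0.61, with all 5 lower in aged-sec. With equal medians it was -0.38 with 4 lower, against 48.7% of all symbols. Only 1 gene of this run, Zfp930, had enough TPM for the size rule, and Zfp868 stood at 0.01 TPM in aged-sec. Of its genes, Zfp930 stood at 24.7 TPM in aged-sec, 33.3 TPM in aged and 15.1 TPM in young oocytes, and Zfp964 at 4.51 TPM in aged-sec, 9.06 TPM in aged and 1.73 TPM in young oocytes. With equal medians the medians of the runs from Zfp160, Zfp84 and Zfp870 lay above 0, at 0.11, 0.03 and 0.06, and with equal upper quartiles that of the run from Zfp84 was -0.029. No gene of these runs met the size rule in this comparison, but only 1 to 3 genes of each run had enough TPM for it.

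**Figure D5:**
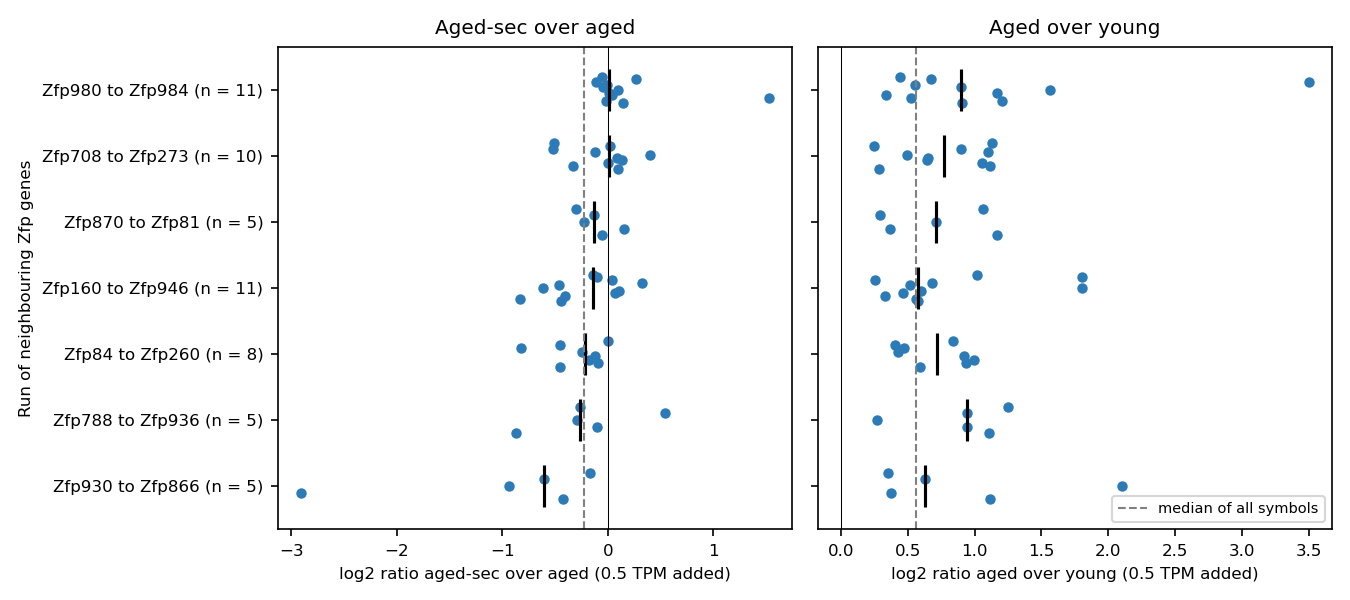
Log2 ratio (horizontal axis, 0.5 TPM added) of aged-sec over aged on the left and aged over young on the right, for the genes of the 7 runs with at least 5 neighbouring Zfp genes (vertical axis). Points are genes, black bars the median of the run and the dashed line the median of all symbols. The run from Zfp980 to Zfp984 has a median of 0.01 on the left and the run from Zfp930 to Zfp866 one of -0.61.

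Genes with known roles were read from lists chosen with earlier results of these data known. Of 7 KRAB zinc finger genes listed for silencing of retroelements or single loci, 6 were members. Of these 3 were lower and 3 higher in aged-sec than in aged, where 73.7% of all symbols were lower. Zfp568, which represses a placental promoter of Igf2 in the mouse embryo, stood at 3.13 TPM in aged-sec, 5.94 TPM in aged and 4.14 TPM in young oocytes. Zfp708, which acts on methylation of a retroelement family in the mouse germline and zygote, stood at 3.49 TPM in aged-sec, 3.24 TPM in aged and 2.57 TPM in young oocytes. Zfp992 stood at 5.65 TPM in aged-sec, 5.47 TPM in aged and 4.23 TPM in young oocytes and Zfp819 at 1.98 TPM in aged-sec, 2.32 TPM in aged and 1.36 TPM in young oocytes. Zfp568 was thus below both aged and young in aged-sec oocytes, and Zfp708 was highest there. All 50-base stretches of Zfp708 (100%) also lie in Gm28557, so its values cannot be assigned to 1 of these genes. Of the 2 genes that protect imprints, Zfp57 was listed below the 1 TPM limit, at 0.78 TPM in aged-sec, 0.59 TPM in aged and 0.31 TPM in young oocytes, and Zfp445 was not analysed here.

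Of 22 genes listed as activators or repressors without KRAB, 6 were members. Of these only 2, Zfp131 and Zfp296, had enough TPM for the size rule, and neither was past it. For all 6 the transcript used had a smaller TPM in the aged-sec library than in the aged one, against 73.7% of all symbols. With equal medians this held for 4 of 6, against 48.7% of all symbols. Other listed transcripts of Zfp131 went both ways. NM_001302549 stood at 10.25 TPM in aged-sec and 5.16 TPM in aged, and XM_030247421 at 0.39 TPM in aged-sec and 1.11 TPM in aged. The direction of the total mRNA of these genes is not known. Besides Zfp131, Zfp296, a chromatin factor of mouse embryonic stem cells, stood at 10.8 TPM in aged-sec, 15.6 TPM in aged and 11.2 TPM in young oocytes. Zfp148, which binds GC-rich promoters, stood at 5.66 TPM in aged-sec, 8.74 TPM in aged and 6.22 TPM in young oocytes. In both genes aged-sec lay below young. Of 10 genes with roles in RNA, ubiquitin or SUMO pathways 4 were members, of which 2 had enough TPM for the rule and neither was past it. Zfp207 (BuGZ), which loads the checkpoint protein BUB3 on kinetochores, stood at 37.4 TPM in aged-sec, 41.8 TPM in aged and 31.98 TPM in young oocytes. Zfp451, a SUMO ligase, stood at 10.6 TPM in aged-sec, 12.7 TPM in aged and 8.84 TPM in young oocytes, and Zfp106, an RNA-binding protein, at 5.42 TPM in aged-sec, 6.70 TPM in aged and 4.93 TPM in young oocytes. For these 3 genes aged-sec lay between aged and young.

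The partners of KRAB zinc finger proteins were read from a list of 26 corepressor and heterochromatin genes, of which 15 were listed and 14 reached 1 TPM. For all 14 the transcript used had a smaller TPM in the aged-sec library than in the aged one, against 73.7% of all symbols. None of the 7 with enough TPM met the size rule in this comparison. The median log2 ratio was -0.58, against -0.23 over all symbols. With equal medians it was -0.33 with 11 of 14 lower, against 48.7% of all symbols. Rbbp7, a histone-binding subunit of deacetylase complexes, stood at 2022 TPM in aged-sec, 2820 TPM in aged and 2001 TPM in young oocytes. Cbx1, a heterochromatin protein that reads methylated histone H3, stood at 22.8 TPM in aged-sec, 33.3 TPM in aged and 26.7 TPM in young oocytes. The deacetylase gene Hdac2 stood at 18.5 TPM in aged-sec, 22.2 TPM in aged and 17.8 TPM in young oocytes, and Mphosph8, a subunit of the HUSH silencing complex, at 15.8 TPM in aged-sec, 19.7 TPM in aged and 11.7 TPM in young oocytes. Atf7ip, a partner of SETDB1, was the 1 gene of 7 with enough TPM past the rule in aged over young, a share near the 15.9% of all symbols. It stood at 8.74 TPM in aged-sec, 15.5 TPM in aged and 4.72 TPM in young oocytes, a log2 aged over young ratio of 1.61. Setdb1 stood at 2.40 TPM in aged-sec, 9.12 TPM in aged and 0.25 TPM in young oocytes and Uhrf1, which guides DNA methylation to replicated DNA, at 0.24 TPM in aged-sec, 8.43 TPM in aged and 2.34 TPM in young oocytes, both under the level of the rule and named after their values were seen. Trim28 was not analysed here.

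Most genes were measured through 1 transcript, and the variants of the others did not always move alike. At 1 TPM or more 95 of the 132 genes had 1 distinct listed transcript and 37 had more, and 102 of the transcripts used were curated ones. Transcripts with an aged over young ratio under 1.2 were not listed, so any of these genes may have others that moved differently. Among 16 genes with at least 2 transcripts at 5 TPM, the widest range was in Zfp638 (NP220), which with HUSH silences unintegrated retroviral DNA in human cells. Its transcript NM_001166371 stood at 5.74 TPM in aged-sec, 9.83 TPM in aged and 7.61 TPM in young oocytes. Its variant XM_006505708 stood at 5.97 TPM in aged-sec, 4.11 TPM in aged and 2.99 TPM in young oocytes. Their log2 aged-sec over aged ratios were -0.73 and 0.49, on opposite sides of 0. In Zfp131 the main transcript had -0.09, and the lower variant NM_001302549 had 0.93, at 10.3 TPM in aged-sec, 5.16 TPM in aged and 2.88 TPM in young oocytes. In Zfp944 the main transcript had 0.04, and NM_176962, at 5.41 TPM in aged-sec, 2.02 TPM in aged and 1.40 TPM in young oocytes, had 1.23.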

How the data were processed

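Per the file headers, the deposited values are TPM per RefSeq transcript for each of the 3 libraries. The 2 deposited ratio columns are quotients of these TPM, aged over young and aged-sec over aged. Aligner, quantification program and genome build: not given in the sources used here. The labels' protocols give cDNA synthesis with SMART-SeqII and a transposon-based library. No row has an aged over young ratio under 1.2, so the 9126 rows are a selected part. The deposited ratios were not used in the comparisons.

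TPM were used as deposited, with Python 3.11.15 and pandas 2.3.3. The pseudocount was 0.5 TPM, which understates the change of low genes, and the level minimum 10 TPM. Members and lists were chosen with earlier results of these data known. Named genes are the 10 most abundant, up to 8 past the size rule per comparison and direction, up to 3 per role list (4 of the corepressors and any past the rule), the 3 with the widest range between variants, and those next to the 1 TPM limit. Other genes are named after their values were seen. Coding sequences were translated from GENCODE M21, in place of the RefSeq proteins first planned, and neighbours and promoters come from RefSeq GRCm38.p6. All 132 genes matched the RefSeq gene table, 131 had a GENCODE coding sequence and 112 had a promoter. No test was made, since each group had 1 library.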

Additional observations from a re-analysis of the deposited data

How the results depend on the processing

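No paired analysis was possible because each group had 1 library, and no library could be left out. With libraries scaled to equal medians or upper quartiles of the listed symbols, 2 of 47 and 2 of 45 Zfp genes were past the rule in aged over young (17 with TPM as deposited), against 2.79% and 2.95% of all symbols. In aged-sec over young it was 3 of 51 and 3 of 48 (9 as deposited), against 3.94% and 4.05%. The medians were then 0.10 and 0.17 in aged over young, 0.19 and 0.20 in aged-sec over young, and 0.072 and 0.014, in place of -0.17, in aged-sec over aged. Genes lower in aged-sec than in aged were then 54 with equal medians, against 48.7% of all symbols, and those lower than young 52 in both, against 54.9% and 53.3%. Equal medians moved the all-symbol median of aged-sec over aged to 0.01, against -0.23 as deposited. A pseudocount of 0.1 TPM gave medians of 0.82 in aged over young and 0.68 in aged-sec over young. With a membership limit of 5 TPM aged-sec over young had a median of 0.69, and aged-sec was below aged in 55 of 78 genes and below young in 8; with no limit (193 genes) the medians were 0.53 in aged over young and 0.41 in aged-sec over young. Without a level filter 37, 6 and 27 of 132 genes were past 2-fold in aged over young, aged-sec over aged and aged-sec over young, against 18.0%, 7.36% and 14.4% of all symbols. With 5 TPM 1 of 78 was in aged-sec over aged (Zfp791), against 3.71%, and 15 of 66 in aged-sec over young, against 14.4%. Without the genes sharing more than 10% of their sequence, an alternative chosen after seeing the data, 8 of 29 and 2 of 26 were past the rule in aged over young and aged-sec over young. Summed rows per symbol, curated transcripts alone and a pseudocount of 1 TPM kept every count within 1.5 times and every median within 0.1, although Zfp68 and Zfp936 in aged over young and Zfp960 in aged-sec over young lost the rule with summed rows. The causes were not tested. Depth is unknown, so no interval limits these values.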

Other observations

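Zinc finger genes with other symbol roots were listed too. Of 49 such symbols at 1 TPM or more (roots Zbtb, Zscan, Zkscan, Zc3h, Zmym, Zcchc, Zdhhc, Zmat, Klf, and Zfp with a letter after the digits), 36 had a lower value in aged-sec than in aged oocytes, with a median log2 ratio of -0.15. That is a share near the 73.7% of all symbols, whose median was -0.23. The 6 Zscan genes, which encode a SCAN domain beside their fingers, had 5 higher and 1 lower in aged-sec, and a median of 0.24. Among them Zscan4b, Zscan4c, Zscan4d and Zscan4f stood at only 1.26 to 2.73 TPM in aged oocytes. Sequence shared between these was not counted. The 6 genes summed to 36.8 TPM in aged-sec, 30.03 TPM in aged and 15.1 TPM in young oocytes. Most of this was Zscan22, at 24.8 TPM in aged-sec, 19.9 TPM in aged and 10.6 TPM in young oocytes, the only 1 of the 6 with enough TPM for the size rule. The 8 Zc3h genes, many of which encode RNA-binding CCCH fingers, had 7 lower in aged-sec and a median of -0.42, and the 7 Zbtb genes 6 lower and -0.39. Differences between these families were not tested.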
